A study of Rattus norvegicus with 20 samples.

Results

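The comparison described here is that of fish oil with soybean oil feeding in uninjured dorsal root ganglia (DRG), the clusters of sensory neuron cell bodies beside the spinal cord. It holds the 7 left DRG libraries of sham-operated rats, 3 from rats on the fish oil diet (FOD-CT) and 4 from rats on the soybean oil diet (SOD-CT), of 20 RNA-seq libraries in the series and 14 from the left side. The animals were young adult female Sprague-Dawley rats, an outbred stock, and were perfused with saline before dissection. Both diets were built on the AIN-93G formula and matched in energy and macronutrients. In the SOD the fat was soybean oil, which is rich in the n-6 fatty acid linoleic acid, and cholesterol was added to match the FOD. In the FOD most of the soybean oil was replaced by fish oil carrying the n-3 fatty acids EPA and DHA. Diets were fed for 4 weeks before surgery, and the study states that feeding went on for 4 weeks after it. In sham surgery, which all 7 rats received, the left sciatic nerve was exposed and no ligature was tied. The sequenced ganglia were collected 1 week after surgery, a shorter time than the stated feeding after it. A planned FOD-CT sample was left out by the authors before library preparation for low RNA. The libraries were made from polyadenylated RNA of DRG. Which spinal levels were taken, and whether ganglia of a rat were pooled, is not given in the sources used here. The labels name separate samples. Unless another fit is named, p-values and intervals rest on the spread within groups among all 14 left libraries, injured rats included.

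Long-chain n-3 fatty acids enter cells through binding and transport proteins, are activated to acyl-CoA, and are built into membrane phospholipids, stored, or oxidized in mitochondria and peroxisomes. In tissues such as liver they are known to lower the activity of SREBP-1, the transcription factor for fatty acid synthesis and desaturation, and to activate PPAR-alpha, the receptor for genes of fatty acid oxidation. They also compete with arachidonic acid as substrates for the enzymes that make prostaglandins and leukotrienes, several of which act on sensory neurons.

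Read totals of the 7 libraries ran from 22792829 to 37731035 counts, and were 22792829 to 29528350 for SOD-CT and 31409402 to 37731035 for FOD-CT. Sensory neuron markers were abundant in each library. The mean level of the 16 neuron markers on the log2 counts-per-million (CPM) scale ran from 8.75 to 9.83 in SOD-CT and from 8.8 to 9.8 in FOD-CT. They took 1.11% of all counts in SOD-CT replicate 1 and 1.98% in FOD-CT replicate 1, against 3.07% to 4.28% in the others. Transcripts of neighbouring tissue were also present. In SOD-CT replicate 1, 17.3% of all counts fell on the 32 skeletal muscle markers. In the other SOD-CT libraries the share was 0.0301%, 0.00712% and 0.904% (replicates 2, 3 and 4), and in FOD-CT 0.306%, 3.82% and 0.124% (replicates 1, 2 and 3). Mylpf, a fast-muscle myosin light chain, stood at 31200 CPM in SOD-CT replicate 1 and at 2650 CPM in FOD-CT replicate 2, against 1.02 CPM in SOD-CT replicate 3. Ckm, the muscle creatine kinase, stood at 26200 and 4680 CPM in the same 2 libraries and at 1.18 CPM in SOD-CT replicate 3.

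The 20 spinal cord markers took 0.53% of the counts of FOD-CT replicate 1 and 0.00488% to 0.0171% in the other 6 libraries. None of the 20 was at 0 in FOD-CT replicate 1, whereas 4 to 14 of them were at 0 in each other library. Agt, an astrocyte gene, stood at 544 CPM in FOD-CT replicate 1 and at 2.58 to 11.7 CPM in the others. Mog, a protein of central myelin, stood at 183 CPM there and at 0 to 5.2 CPM elsewhere. Gad1, the enzyme that makes the transmitter GABA, stood at 135 CPM there and at 0.815 to 4.1 CPM elsewhere. The markers Aqp4 and Cldn11 were also highest in FOD-CT replicate 1 (1520 and 562 CPM) but were less particular to it. Aqp4 reached 94.6 CPM in SOD-CT replicate 1, and Cldn11 122 CPM in SOD-CT replicate 3. One soybean oil library thus carried muscle transcripts at a high share and one fish oil library carried spinal cord transcripts, so values are given below with all 7 libraries and without these 2 (SOD-CT replicate 1 and FOD-CT replicate 1, "both libraries"). FOD-CT replicate 2 stayed in with its muscle transcripts. Red cell markers (12 genes) held 1.02% of all counts in SOD-CT replicate 4 and 0.0149% to 0.104% in the other 6 libraries.

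**Figure D1:**
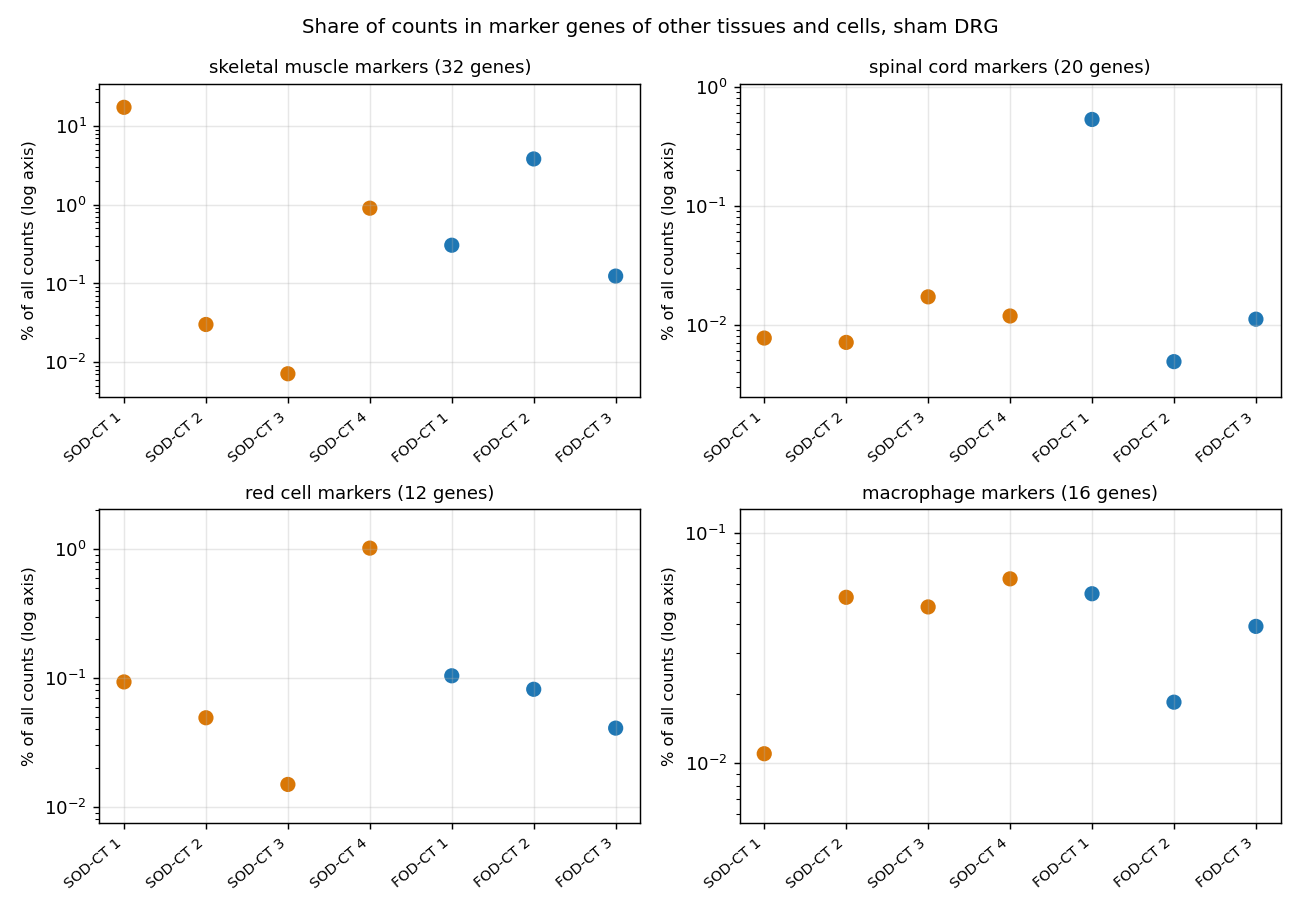
Share of all counts (%, log axis) taken by marker genes of skeletal muscle, spinal cord, red cells and macrophages, with 1 point per sham library (orange SOD-CT, blue FOD-CT). SOD-CT replicate 1 stands highest for muscle (17.3%), FOD-CT replicate 1 for spinal cord (0.53%) and SOD-CT replicate 4 for red cells (1.02%).

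No gene passed the test between FOD-CT and SOD-CT. With edgeR, 0 of 14484 genes tested (0%) met the criteria for a call, a 1.2-fold difference with an adjusted p no higher than 0.1, and the smallest adjusted p was 0.965. At an unadjusted p under 0.05 there were 491 genes (3.39% of those tested), 256 with the higher level in FOD-CT (1.77%) and 235 with the lower level (1.62%). For scale, 5% of the genes tested would be 724. The count of calls was likewise 0 by DESeq2 (692 genes under the unadjusted threshold) and by limma (793 genes). All folds below are log2 fold changes of FOD-CT against SOD-CT, so that a positive value is a higher level under fish oil. Their median over all genes was −0.01, and 48.6% were positive. Without both libraries edgeR called 0 of 14988 genes, and 345 (2.3%) were at an unadjusted p under 0.05, 176 higher (1.17%) and 169 lower (1.13%). The median fold change was again −0.01, and 48.2% of the values were positive.

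The genes at the low end of the p-values were largely different in the 2 fits. Of the 491 genes at an unadjusted p under 0.05 with all libraries, 61 were also under 0.05 without both libraries (2.3% of all genes were). Of the 491, 449 kept their sign, but the 2 fits share most of their libraries, so kept signs are not independent evidence. The levels of all 3 FOD-CT libraries lay above all 4 SOD-CT libraries for 278 genes (1.92%) and below them for 193 (1.33%). Without both libraries, which leaves 2 FOD-CT against 3 SOD-CT libraries, these shares were 8.33% above and 7.56% below. Libraries on different diets were about as alike as libraries on one diet. Among the 5 libraries left, Spearman's rho across genes was 0.934 to 0.978 (median 0.948, 6 pairs) between diets and 0.918 to 0.978 (median 0.944, 4 pairs) within a diet. Pairs that included SOD-CT replicate 1, FOD-CT replicate 1 or both gave 0.8 to 0.912 between diets (median 0.89, 6 pairs) and 0.81 to 0.912 within a diet (median 0.878, 5 pairs).

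**Figure D2:**
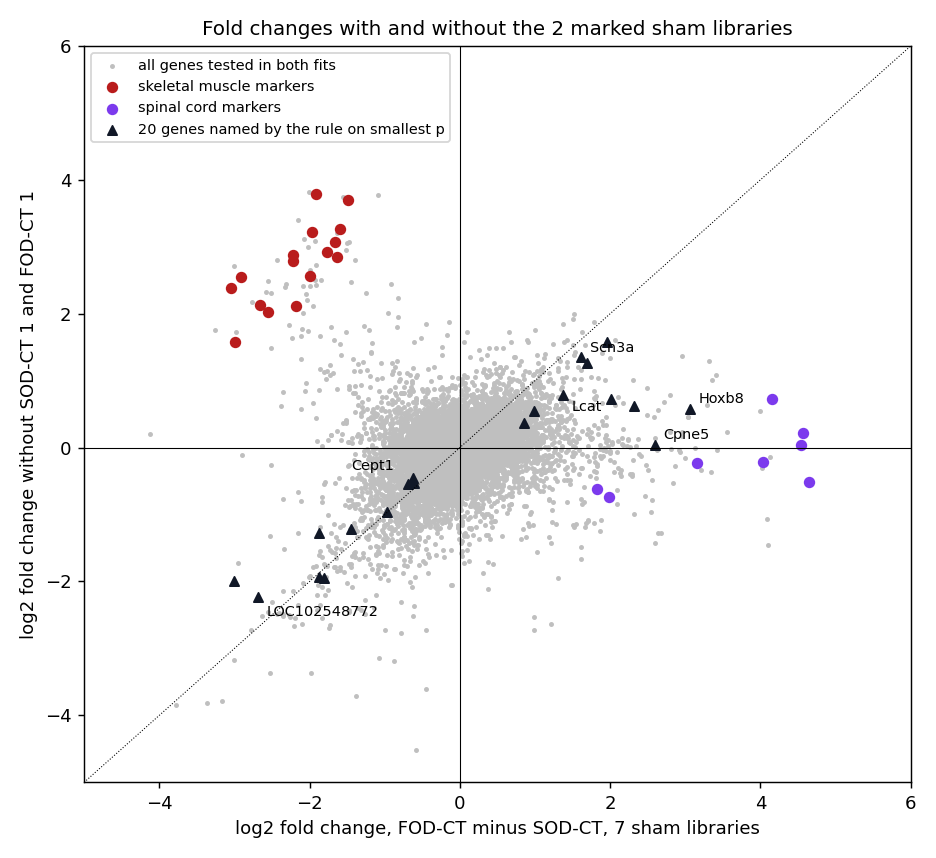
Each gene's log2 fold change (FOD-CT minus SOD-CT) with all 7 sham libraries (horizontal axis) and without SOD-CT replicate 1 and FOD-CT replicate 1 (vertical axis), with muscle markers in red, spinal cord markers in violet and the 20 genes of smallest p that kept their sign as triangles. The muscle markers pass from below 0 to above 0 between the fits, and the spinal cord markers lie between 1.83 and 4.65 with all libraries and have a median of −0.22 without both.

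How large a difference these libraries leave room for was read from the 95% intervals of the fold changes. For 6373 genes (44%) the interval lay wholly within a 2-fold change in either direction, and for the others it reached beyond 2-fold in at least 1 direction. Without both libraries this held for 7376 genes (49.2%). The median half-width of the interval was 0.79 on the log2 scale with all libraries and 0.77 without both.

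The gene with the smallest p was Lcat, which encodes lecithin-cholesterol acyltransferase, the enzyme that esterifies cholesterol with a fatty acid taken from phosphatidylcholine. Lcat stood at 7.54, 14.8, 15.6 and 13.1 CPM in SOD-CT replicates 1 to 4 and at 49, 27.1 and 23 CPM in FOD-CT replicates 1 to 3. The FOD-CT libraries were all higher, with the highest value in the library with spinal cord transcripts and the lowest in the library with muscle transcripts. The fold change was 1.37 (SE 0.31, adjusted p = 0.965), and 0.79 (SE 0.25) without both libraries.

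Scn3a, which encodes the sodium channel Nav1.3, was at 2.51, 3.48, 3.25 and 1.57 CPM in SOD-CT and at 10.7, 7.61 and 6.46 CPM in FOD-CT. Its groups did not overlap. The fold change was 1.61 (SE 0.41), and 1.35 (SE 0.47) without both libraries. Celf3, a neuronal splicing regulator, was at 1.76 to 2.96 CPM in SOD-CT and at 12.1, 5.83 and 5.54 CPM in FOD-CT. Its fold change was 1.69 (SE 0.44) and 1.26 (SE 0.47), respectively. These 3 genes and Hoxa2, a homeobox gene of axial patterning present at 0.299 to 1.62 CPM in SOD-CT and 1.72 to 5.26 CPM in FOD-CT, were the 4 of the 10 leading higher genes that stayed under an unadjusted p of 0.05 without both libraries.

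The other 6 leading higher genes were not under that threshold without both libraries. FOD-CT replicate 1 had the highest value of the 7 libraries for all 10. Hoxb8 was at 2.17, 9.25, 6.78 and 4.19 CPM in SOD-CT and at 121, 11.9 and 8.1 CPM in FOD-CT, and its fold change was 3.06 (SE 0.96) with and 0.58 (SE 0.83) without both libraries. Cpne5, a calcium-dependent phospholipid-binding protein, was at 1.68 to 6.01 CPM in SOD-CT and at 63.5, 5.58 and 2.78 CPM in FOD-CT, with fold changes of 2.59 and 0.04. Outside FOD-CT replicate 1, the Hoxb8 and Cpne5 values of the diets overlapped. Baalc was at 2.92, 15.7, 14.3 and 12.5 CPM in SOD-CT and at 91.1, 24 and 23 CPM in FOD-CT (2.01 and 0.73). Necab2, a neuronal calcium-binding protein, was at 1.6 to 2.99 CPM and at 25.7, 3.46 and 3.86 CPM (2.32 and 0.62). Pdzd4 (0.99 and 0.54) and St3gal4, a sialyltransferase (0.85 and 0.37), had smaller differences without overlap.

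The 10 leading lower genes all lay below every SOD-CT library in all 3 FOD-CT libraries (1.33% of all genes did), and all 10 stayed under an unadjusted p of 0.05 without both libraries. They were chosen by their p and sign in these same libraries, as were the higher genes, so neither count is evidence of a difference. Each had an adjusted p of 0.965. Cept1, which encodes the enzyme for the last step in the synthesis of phosphatidylcholine and phosphatidylethanolamine, was at 150, 120, 104 and 138 CPM in SOD-CT and at 71.4, 101 and 75.8 CPM in FOD-CT. The groups were separated by a narrow margin, 104 against 101 CPM. The fold change was −0.63 (SE 0.19), and −0.45 (SE 0.2) without both libraries.

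Riok1, a kinase in the maturation of the small ribosomal subunit, had closely grouped values, with 22.9 to 25.1 CPM in SOD-CT and 13.9 to 17 CPM in FOD-CT (−0.61, SE 0.19). Arpp19, a regulator of the phosphatase PP2A, was at 65.5, 53, 56.5 and 47.9 CPM in SOD-CT and at 31.8, 31.5 and 40.6 CPM in FOD-CT (−0.69, SE 0.19). Pign, an enzyme of glycosylphosphatidylinositol anchor synthesis, was at 10.5 to 13.6 CPM and at 4.96 to 7.61 CPM (−0.97, SE 0.29). For Riok1, Arpp19 and Pign the values without both libraries were −0.53, −0.54 and −0.96. Atg10, an enzyme of autophagosome formation, was at 28.1, 7.53, 7.7 and 21.8 CPM in SOD-CT and at 3.11, 3.31 and 6.85 CPM in FOD-CT (−1.88, SE 0.51). The SOD-CT values of Atg10 thus fell into a high pair, the libraries with the most muscle transcripts of that group, and a low pair. LOC102548772 was at 7.95, 2.99, 3.09 and 3.59 CPM in SOD-CT and at 0.668, 1.06 and 0.306 CPM in FOD-CT (−2.69, SE 0.64), LOC679342 had a fold change of −3 (SE 0.76) and LOC100363869 of −1.45 (SE 0.39). The remaining 2 were transcripts without a gene name, at −1.87 and −1.81.

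**Figure D3:**
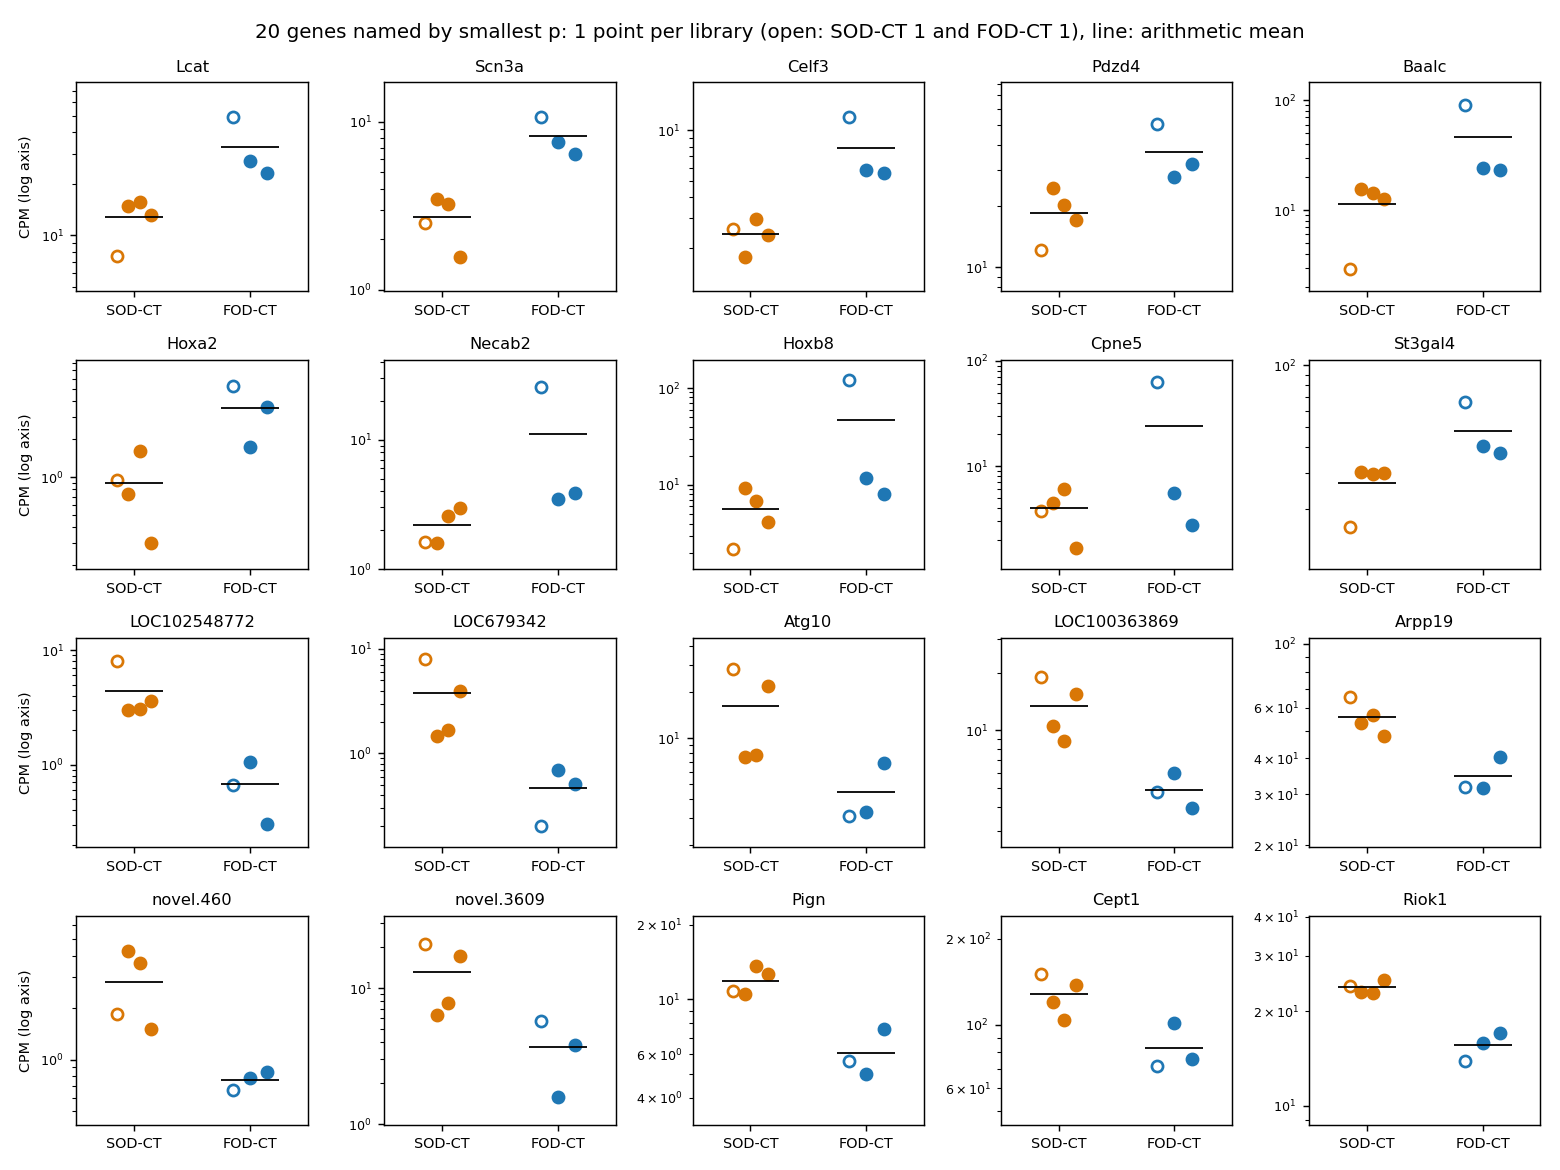
CPM (log axis) of the 10 higher and 10 lower genes of smallest p that kept their sign when libraries were left out, with 1 point per library, open points for SOD-CT replicate 1 and FOD-CT replicate 1, and a line at the arithmetic mean of the group. FOD-CT replicate 1 is the highest point for all 10 higher genes, and the FOD-CT points lie below the SOD-CT points for all 10 lower genes.

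Over 8 lists of lipid genes, 191 of 231 genes found were tested and 0 were called. Of the 191, 111 had a positive fold change, 3 were higher and 1 lower at an unadjusted p under 0.05, and the median was 0.05, beside −0.01 for all genes. The interval lay within a 2-fold change for 95 of them (49.7%), and for 116 of 195 (59.5%) without both libraries.

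Genes of fatty acid synthesis and desaturation had a median fold change of 0.11 (16 of 22 positive), and of 0.15 without both libraries (15 of 22). The median was 0.02 without SOD-CT replicate 1 alone and 0.05 without FOD-CT replicate 2 alone. In the rats with nerve injury, fish oil against soybean oil gave −0.11 in injured DRG (7 of 22 positive) and −0.35 in right DRG (4 of 22). Srebf1, which encodes SREBP-1, was at 80.3, 87.9, 81.7 and 64 CPM in SOD-CT and at 121, 107 and 87.2 CPM in FOD-CT. The lowest FOD-CT value lay just under the highest SOD-CT value. Its fold change was 0.42 (SE 0.17, interval 0.05 to 0.79, adjusted p = 0.965), and 0.32 (SE 0.18) without both libraries. Fads2, the delta-6 desaturase that makes long-chain polyunsaturated fatty acids, was at 43.7, 111, 103 and 101 CPM in SOD-CT and at 90.3, 124 and 124 CPM in FOD-CT. Its fold change was 0.32 (interval −0.33 to 0.98) with all libraries and 0.23 (−0.31 to 0.78) without both. Elovl5, an elongase of the same pathway, was at 0.42 (−0.35 to 1.18) with all libraries and at 0.24 (−0.25 to 0.74) without both. The interval left out a 2-fold change in both fits for Fads2, but for Elovl5 only without both libraries. Acacb, the acetyl-CoA carboxylase of the mitochondrial surface, stood at 29.6 CPM in SOD-CT replicate 1 and at 2.78 to 8.26 CPM in the other 6 libraries. Its fold change was −1.1 (SE 0.6) with and −0.23 (SE 0.51) without both libraries.

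Genes of cholesterol synthesis and uptake had a median of 0.05 (21 of 31 positive, 22 within a 2-fold change) and of 0.08 without both libraries, and of −0.02 without SOD-CT replicate 1 alone. Srebf2, the transcription factor of this pathway, was at 78.3, 108, 121 and 111 CPM in SOD-CT and at 184, 112 and 115 CPM in FOD-CT, with a fold change of 0.39 (SE 0.23). Apart from the 2 libraries its values were nearly alike, and the fold change was 0 (SE 0.21). Mvk, mevalonate kinase, had a fold change of 0.37 (SE 0.2), Dhcr7, the last enzyme of one route to cholesterol, of 0.44 (SE 0.32), and Msmo1, a sterol demethylation enzyme, of 0.29 (SE 0.22). None of the 31 genes was at an unadjusted p under 0.05.

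PPAR targets and fatty acid oxidation genes had a median of −0.26 with all libraries (13 of 33 positive) and of 0.17 without both (27 of 33), and the sign of the list turned with SOD-CT replicate 1. Its median was 0.03 without that library alone and −0.12 without FOD-CT replicate 1 alone. Acadm, the medium-chain acyl-CoA dehydrogenase, was at 835, 73.7, 68.7 and 125 CPM in SOD-CT and at 81.5, 188 and 79.8 CPM in FOD-CT. The libraries with the highest muscle marker share, SOD-CT replicate 1 and FOD-CT replicate 2, had the highest Acadm values. Its fold change was −1.24 (SE 0.72) with and 0.58 (SE 0.33) without both libraries. Etfb, an electron carrier subunit of the same pathway, was at 245 CPM in SOD-CT replicate 1 and 53 to 84.1 CPM in the others (−0.84 and −0.03), and Decr1, which prepares unsaturated fatty acids for oxidation, was at 134 CPM and 26.9 to 54.2 CPM (−0.81 and −0.19). Pex11a, a peroxisome division gene and PPAR target, was at 2.85, 3.15, 3.5 and 4.11 CPM in SOD-CT and at 5.69, 7.48 and 3.96 CPM in FOD-CT (0.74, SE 0.38, and 0.67, SE 0.45). With FOD-CT replicate 3 alone against SOD-CT replicates 2 to 4, the median of the list was 0.06 (24 of 33 positive). The muscle markers had medians of −2.09, 2.82 and −1.47 in these 3 comparisons, and their part in the values of the list was not tested.

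Genes of fatty acid uptake, binding and storage held members of the same kind, with a median of 0.04 (14 of 23 positive) and of 0.19 (16 of 24). Cd36, a fatty acid translocase, was at 243, 14.3, 21.1 and 43.1 CPM in SOD-CT and at 20.5, 35.7 and 24.7 CPM in FOD-CT (−1.57, SE 0.87, and 0.2, SE 0.68). Fabp3, the muscle fatty acid-binding protein, was at 310, 43.1, 43.7 and 57.4 CPM and at 19.5, 84.5 and 44.1 CPM (−1.2 and 0.42). Lpl, lipoprotein lipase, had fold changes of −1.17 and 0.04. For all 3 genes the highest value was in SOD-CT replicate 1. Acsbg1, a long-chain acyl-CoA synthetase of brain and ganglia, was at 56.5, 129, 109 and 71.8 CPM in SOD-CT and at 333, 141 and 133 CPM in FOD-CT. Its groups did not overlap, the highest value was in the library with spinal cord transcripts, and the fold change was 1.15 (SE 0.42) with and 0.41 (SE 0.41) without both libraries.

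Eicosanoid synthesis genes had a median of −0.1 (8 of 17 positive), and none was at an unadjusted p under 0.05. Lta4h, which makes leukotriene B4, was at 54.6, 43.8, 38.6 and 40.7 CPM in SOD-CT and at 32.9, 32.9 and 34.8 CPM in FOD-CT, without overlap. Its fold change was −0.4 (SE 0.25), and −0.28 (SE 0.29) without both libraries. Alox5ap, which presents arachidonic acid to 5-lipoxygenase, was at 9.51, 4.99, 5.66 and 10.2 CPM and at 4.82, 2.46 and 5.11 CPM (−0.87, SE 0.61). Ptges3, which is also the Hsp90 cochaperone p23, had fold changes of −0.26 and 0.11, and Ptgr1, a prostaglandin reductase, of 0.91 and −0.1.

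Receptors for fatty acids and lipid mediators were often too low to test, with 18 of 30 tested, a median of −0.09, and 7 of 18 positive. Gpr37l1, an orphan receptor of glia, was at 87.8, 139, 132 and 137 CPM in SOD-CT and at 316, 150 and 153 CPM in FOD-CT (0.73, SE 0.34, and 0.15, SE 0.33). Gpr37, its relative in oligodendrocytes, was at 13.7 to 29.2 CPM in SOD-CT and at 221, 29.9 and 25.4 CPM in FOD-CT (1.92 and −0.01). Both genes were highest in the library with spinal cord transcripts. Cysltr2, a leukotriene receptor, had fold changes of −0.8 (SE 0.58) and −0.19, and Ptger1, a prostaglandin E2 receptor, of −0.51 (SE 0.37) and −0.4.

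Endocannabinoid receptors and enzymes had a median of 0.24 (8 of 11 positive) and of −0.08 without both libraries (5 of 11). The anandamide-degrading enzyme Faah, listed in the files under LOC100911581, was at 4.01, 10.3, 9.23 and 4.97 CPM in SOD-CT and at 18.5, 7.67 and 13 CPM in FOD-CT (0.87, SE 0.39, and 0.35, SE 0.39). Abhd6 and Abhd12, which hydrolyze 2-arachidonoylglycerol, had fold changes of 0.61 and 0.34, and of 0.2 and 0.13 without both libraries. Cnr1, the cannabinoid receptor of neurons, was at 35.9, 34.4, 46.4 and 57.3 CPM in SOD-CT and at 80.4, 49.2 and 38.1 CPM in FOD-CT (0.36, SE 0.47, and −0.08, SE 0.56).

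Phospholipid synthesis and remodeling genes had a median of 0.14 (24 of 37 positive) and of 0.01 without both libraries (19 of 37). Cept1, described above, was the member at an unadjusted p under 0.05. Agpat5, an acyltransferase for lysophosphatidic acid, was at 25.6, 47.9, 47.1 and 32.9 CPM in SOD-CT and at 56, 57.3 and 49.3 CPM in FOD-CT, without overlap (0.5, SE 0.24, and 0.32, SE 0.24). Mboat2 and Mboat7, which reacylate lysophospholipids, had fold changes of 0.39 and 0.48, and of 0.31 and −0.09 without both libraries.

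**Figure D4:**
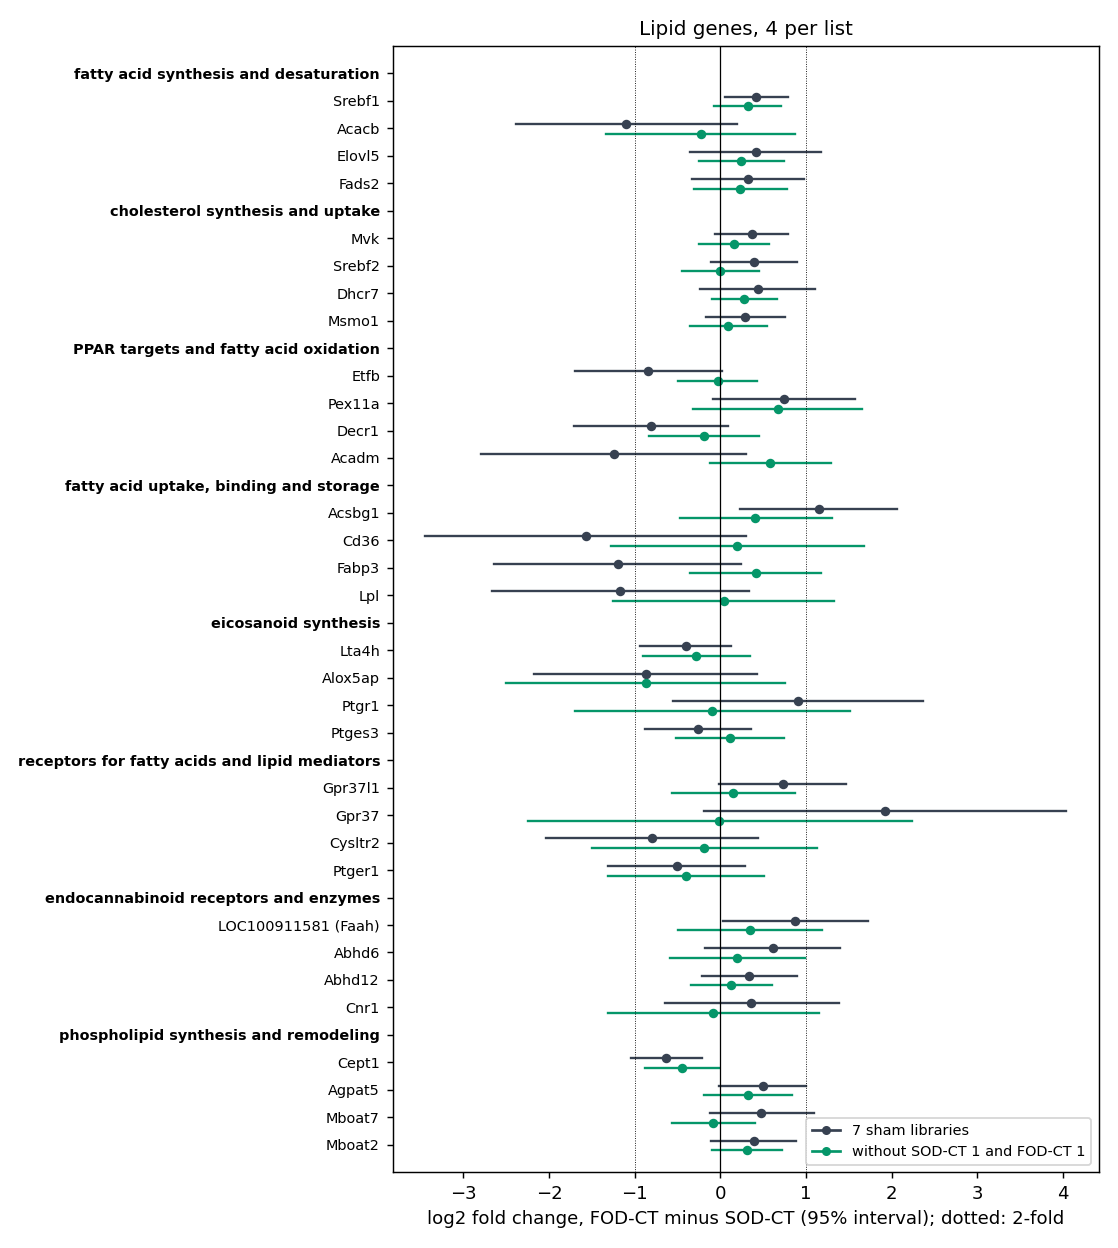
Log2 fold change (FOD-CT minus SOD-CT) with its 95% interval for the 4 genes of smallest p in each of 8 lipid lists, with all 7 sham libraries (dark) and without SOD-CT replicate 1 and FOD-CT replicate 1 (green), and dotted lines at 2-fold. The dark and green values of Acadm, Cd36, Fabp3 and Lpl lie on opposite sides of 0, and those of Srebf1, Fads2, Elovl5 and Cept1 lie on the same side.

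Stress and redox genes gave 0 calls. Selenoproteins and selenocysteine synthesis genes had a median of −0.14 (10 of 30 positive) and of −0.05 without both libraries. Pstk, a kinase of selenocysteine synthesis, was at 60.7, 5.85, 9.13 and 18 CPM in SOD-CT and at 6.68, 11.7 and 6.69 CPM in FOD-CT (−1.49, SE 0.7, and −0.27, SE 0.59), and its highest values in each diet were in the libraries with the most muscle transcripts. Selk, an endoplasmic reticulum selenoprotein, had fold changes of −0.74 and −0.1. NRF2 antioxidant and iron genes had a median of −0.05 (14 of 32 positive), with Txn1, thioredoxin, at −0.63 (SE 0.34) and −0.24. Integrated stress and unfolded protein response genes had a median of −0.03 (10 of 23 positive). Phgdh, the first enzyme of serine synthesis, had a fold change of 0.32 (SE 0.22) and 0.13 without both libraries. Mthfd2, a mitochondrial folate enzyme under ATF4, was at 6.45, 20.6, 17.6 and 19.9 CPM in SOD-CT and at 21.3, 29.7 and 28.9 CPM in FOD-CT, without overlap (0.72, SE 0.34, and 0.6, SE 0.26).

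Cytosolic heat shock proteins had a median of −0.12 (6 of 20 positive) and of 0.14 without both libraries. Hspe1 and Dnaja1, chaperones of the mitochondrion and the cytosol, had fold changes of −0.63 and −0.53, and of −0.04 and −0.19 without both libraries. Immediate early genes, which respond to neuronal activity and tissue handling, had a median of −0.4 (7 of 23 positive) and of −0.28. Dusp5, a phosphatase of ERK, was at 7.13, 8.64, 14.2 and 6.88 CPM in SOD-CT and at 2.79, 5.33 and 6.41 CPM in FOD-CT (−0.93, SE 0.55). Dusp1, a phosphatase of MAP kinases, stood at 85.5 CPM in SOD-CT replicate 1 and at 15.3 to 32 CPM elsewhere (−0.78 and −0.22). Circadian clock genes had a median of 0.3 (12 of 18 positive) and of 0.12, but of −0.31 without FOD-CT replicate 1 and of −0.07 (8 of 18) with FOD-CT replicate 3 alone. Nr1d1, the clock repressor Rev-erb alpha, was at 22, 12.8, 11.8 and 5.5 CPM in SOD-CT and at 43.2, 19 and 19.1 CPM in FOD-CT (1.06, SE 0.5, and 0.93, SE 0.5). Glucocorticoid and insulin responsive genes had a median of −0.3 (5 of 16 positive) and of −0.51 without both libraries (1 of 16 positive), but of 0 without SOD-CT replicate 4. Fkbp5, a glucocorticoid-induced cochaperone, was at 24.6 to 31.2 CPM in SOD-CT and at 24, 20 and 17.6 CPM in FOD-CT, without overlap (−0.38, SE 0.23, and −0.53, SE 0.26). Cdkn1a, the cell cycle inhibitor p21, had fold changes of −1.14 (SE 0.62) and −0.6 (SE 0.66).

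Neuronal lists held few genes under an unadjusted p of 0.05 once both libraries were left out. Nociceptor channels and receptors had medians of −0.07 (17 of 39 positive) and −0.04, and of 0.17 without FOD-CT replicate 1 alone. Mrgprb4, a receptor of a class of touch-sensing C fibers, was at 32.3, 24.6, 29.4 and 25.2 CPM in SOD-CT and at 5.11, 12.6 and 23.5 CPM in FOD-CT. The FOD-CT values were all lower and spread widely, with a fold change of −1.02 (SE 0.42) and of −0.54 (SE 0.37) without both libraries. Ntrk2, the receptor of BDNF, was at 111, 180, 198 and 137 CPM in SOD-CT and at 471, 200 and 196 CPM in FOD-CT (0.88, SE 0.33, and 0.2, SE 0.27). Sensory neuropeptides had medians of 0.23 (15 of 23 positive) and 0.03, and glutamate handling genes of 0.46 (16 of 21) and 0.07. Each of these 2 lists held 3 genes at an unadjusted p under 0.05 on the higher side with all libraries and 0 without both. Penk, the precursor of the enkephalins, stood at 146 CPM in FOD-CT replicate 1 and at 4.6 to 9.55 CPM in the other 6 libraries. Slc1a3, a glutamate transporter of glia, stood at 269 CPM there and at 21.3 to 33.6 CPM elsewhere. The diets thus overlapped for both genes outside the library with spinal cord transcripts.

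Nerve injury genes, which sensory neurons turn on after axon damage, had a median of −0.01 (9 of 19 positive), of −0.3 without both libraries (3 of 20) and of −0.79 with FOD-CT replicate 3 alone (1 of 21), but of 0.04 without SOD-CT replicate 4. Sensory neuron markers had a median of 0.11 (11 of 16 positive) and of 0.22 without both libraries (14 of 16), but of −0.1 without SOD-CT replicate 1 alone and of −0.14 without FOD-CT replicate 2 alone. Rbfox3, the nuclear marker NeuN, was at 7.95, 45, 39.9 and 17 CPM in SOD-CT and at 47.5, 35.5 and 44.9 CPM in FOD-CT (0.63, SE 0.48). Its lowest values were in the SOD-CT libraries with the most muscle or red cell transcripts. Snap25, a protein of synaptic vesicle release, had a fold change of 0.32 (SE 0.34). In whole ganglia, fewer cells of a type and less RNA per cell cannot be told apart.

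Of the other cell types, fibroblast and collagen genes shared 1 sign in most comparisons of the sham libraries, which overlap in the libraries they use. All 18 had a negative fold change with all libraries (median −0.61, range −1.9 to −0.29), 17 of 18 without both libraries (median −0.77), and all 18 with FOD-CT replicate 3 alone (median −0.32). No member was at an unadjusted p under 0.05. In rats with nerve injury, fish oil against soybean oil gave mostly positive values. These were 12 of 18 in injured DRG (median 0.1) and 12 of 16 in right DRG (median 0.3). In the sham libraries the mean level of the list was 5.36, 6.11, 6.62 and 6.04 log2 CPM in SOD-CT and 5.55, 4.87 and 5.98 log2 CPM in FOD-CT, so the groups overlapped through SOD-CT replicate 1. Col14a1, a fibril-associated collagen, was at 41.6, 67.8, 90.4 and 80.4 CPM in SOD-CT and at 29.9, 43.5 and 64.3 CPM in FOD-CT (−0.61, SE 0.4). Postn, a matrix protein of fibroblasts, stood at 58 CPM in SOD-CT replicate 1 and at 1.63 to 10.8 CPM in the other 6 libraries.

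Macrophage markers had a median of −0.09 (6 of 15 positive) with all libraries, of −0.83 without both (0 of 15), and of −0.4 with FOD-CT replicate 3 alone (4 of 16). The sign turned with 1 library, since the median was 0.3 without FOD-CT replicate 2 and 0.09 without SOD-CT replicate 4. Their mean level was 1.34, 3.67, 3.42 and 3.48 log2 CPM in SOD-CT and 3.9, 1.92 and 3.24 log2 CPM in FOD-CT. The lowest library of each diet was the one with the most muscle transcripts. Lyz2, lysozyme, was at 85.1, 255, 230 and 426 CPM and at 152, 108 and 202 CPM (−0.7, SE 0.74), and Tyrobp, a signaling adaptor of myeloid cells, had fold changes of −0.6 (SE 0.56) and −1.22 (SE 0.66). Complement genes had medians of −0.21 (5 of 20 positive) and −0.76, and lymphocyte and MHC class II genes had medians of −0.58 (1 of 5) and −0.81. Cytokines and chemokines had medians of 0.06 (9 of 15) and −0.35, and interferon response genes of −0.17 (6 of 27) and −0.2. Cx3cl1, a chemokine of neurons, stood at 120 CPM in FOD-CT replicate 1 and at 0.544 to 11.4 CPM elsewhere. The interferon-induced genes Ifih1 and Rsad2 had fold changes of −0.63 (SE 0.35) and −1.37 (SE 0.91). Clu, a secreted chaperone that inhibits complement, had 0.43 (SE 0.27).

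Schwann cell and myelin markers had a median of −0.14 (5 of 13 positive), of −0.41 without both libraries (0 of 13), and of −0.11 with FOD-CT replicate 3 alone (4 of 13), but of 0.19 without SOD-CT replicate 4. Egr2, the transcription factor of myelination, was at 20.7, 15.1, 26.3 and 86.8 CPM in SOD-CT and at 9.32, 21.6 and 14.6 CPM in FOD-CT (−1.29, SE 0.55), and its high value came from SOD-CT replicate 4, the library with the most red cell transcripts. Satellite glia markers had medians of 0.5 (7 of 8) and 0, and endothelial markers of 0.41 (11 of 14) and −0.08. Tie1, an endothelial receptor kinase, had fold changes of 0.47 (SE 0.36) and 0.07. Gja1, the gap junction protein of satellite glia and of astrocytes, was at 17.5 to 56.5 CPM in SOD-CT and at 420, 49.7 and 41.5 CPM in FOD-CT. Red cell markers had a median of −2.18 (0 of 8 positive), and of 0.07 when SOD-CT replicate 4 was left out. Of the adipocyte markers 2 were tested, with a median of −0.44, and of 0.27 without both libraries. Spinal cord markers had medians of 4.1 (8 of 8) and −0.22.

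Lists of mitochondrial, ribosomal and proteasome genes had lower medians with SOD-CT replicate 1 than without it. For proteasome subunits the median was −0.14 without SOD-CT replicate 1 alone and −0.13 without FOD-CT replicate 1 alone. Oxidative phosphorylation subunits had a median of −0.64 (2 of 75 positive), of 0.14 without both libraries (55 of 76), and of 0.06 when only SOD-CT replicate 1 was left out. With FOD-CT replicate 3 alone against SOD-CT replicates 2 to 4 it was −0.05 (31 of 76). Uqcrq, a subunit of complex III, was at 1150, 214, 148 and 307 CPM in SOD-CT and at 118, 222 and 151 CPM in FOD-CT (−1.47, SE 0.57, and −0.26, SE 0.34). Ndufs4, a subunit of complex I, was at 413, 162, 127 and 217 CPM and at 102, 130 and 97.3 CPM (−1.06, SE 0.34, and −0.57, SE 0.27). Cytosolic ribosomal proteins had medians of −0.47 (3 of 76) and 0.01 (38 of 76), mitochondrial ribosomal proteins of −0.42 (7 of 70) and 0.08 (45 of 70), and proteasome subunits of −0.27 (6 of 37) and 0.03 (23 of 37). With FOD-CT replicate 3 alone their medians were −0.13 (24 of 76), −0.06 (27 of 70) and −0.03 (15 of 37), respectively.

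Rps19, a protein of the small ribosomal subunit, was at 578, 262, 201 and 357 CPM in SOD-CT and at 206, 185 and 153 CPM in FOD-CT (−0.95, SE 0.31, and −0.69, SE 0.26). It was 1 of 7 of the 76 cytosolic ribosomal protein genes under an unadjusted p of 0.05, all lower (1.62% of all genes were). Without both libraries 1 was lower and 1 higher at that threshold. Reads of such genes can be shared with pseudogene copies. Rps15a, of the same subunit, had a fold change of −0.76 (−0.45 without both libraries). The mitochondrial ribosomal genes Mrpl42 and Mrpl45 had −1.25 (−0.55) and −0.52 (−0.25), and the proteasome genes Psmb6 and Psma5 had −0.77 (−0.4) and −0.37 (−0.13). Hox genes had medians of 0.4 (12 of 19) and 0.12 (13 of 20), and of −0.2 without FOD-CT replicate 1 alone. The 6 genes that the study named for diet or injury, a list chosen on these samples, had a median of 0.06 (3 of 6), and of −0.39 without both libraries. Among them Hmgn1, a nucleosome-binding protein, was at 52.4, 47.2, 52 and 69.2 CPM in SOD-CT and at 80.4, 71.9 and 58.4 CPM in FOD-CT (0.35, SE 0.21).

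**Figure D5:**
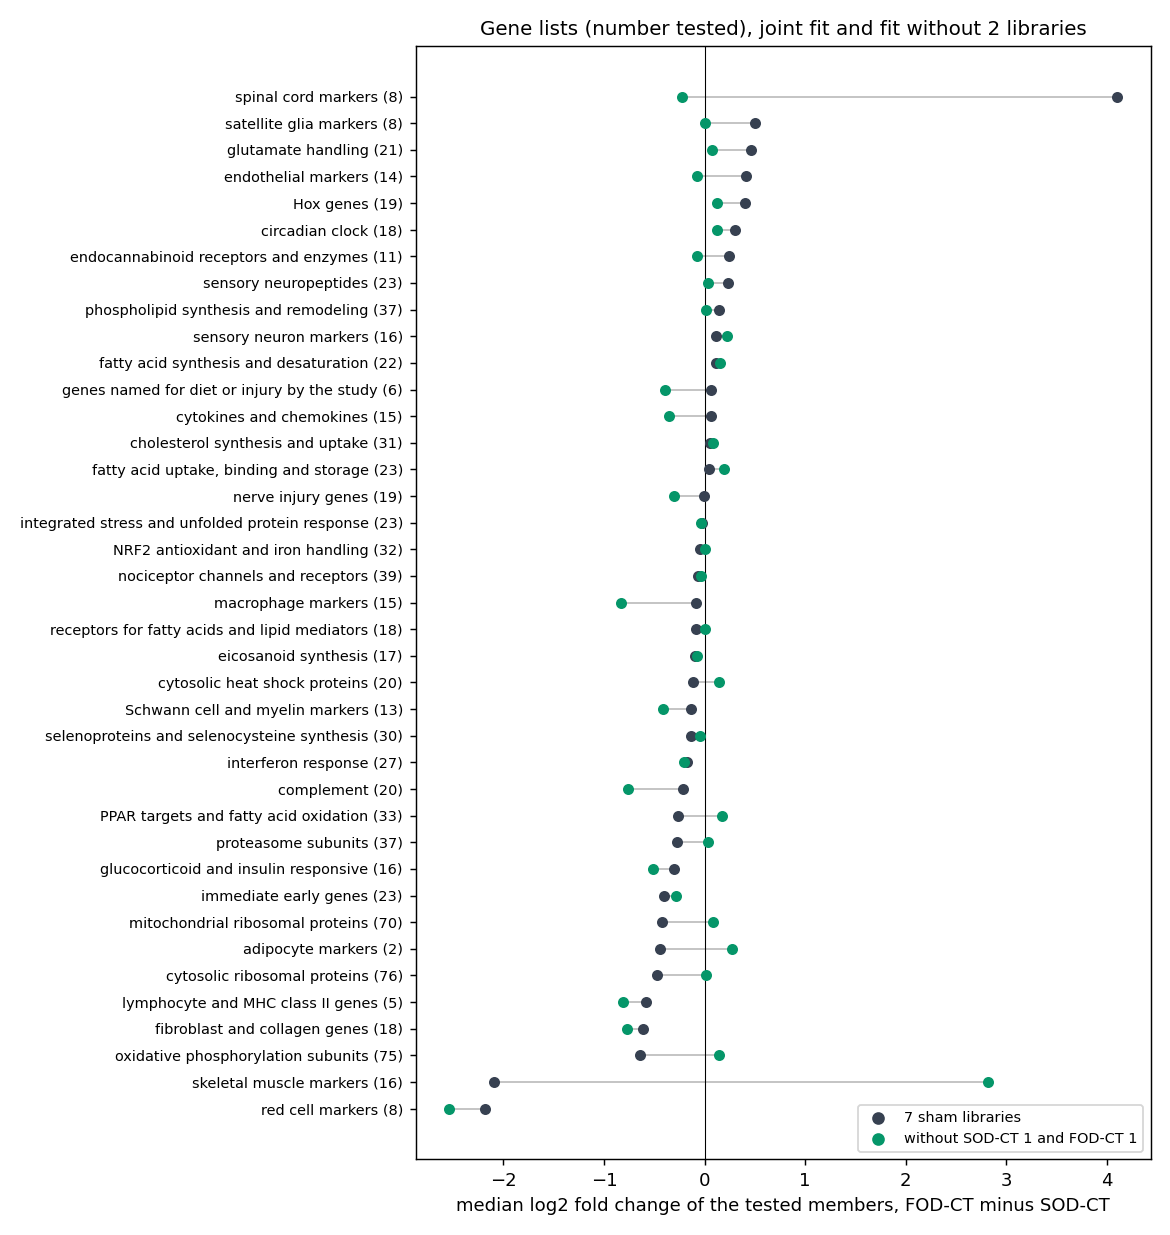
Median log2 fold change (FOD-CT minus SOD-CT) of the tested members of each gene list, with all 7 sham libraries (dark) and without SOD-CT replicate 1 and FOD-CT replicate 1 (green), and the number tested in parentheses. Skeletal muscle passes from −2.09 to 2.82 and spinal cord from 4.1 to −0.22, and fibroblast and collagen genes stay below 0 at −0.61 and −0.77.

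Whether the leading genes differed between diets in other animals was looked at in rats with a chronic constriction injury (CCI) of the left sciatic nerve, which share no library with the sham rats. The injured left DRG (FOD-CCI against SOD-CCI) and the right DRG, on the side without injury, came from the same rats. Of the 10 leading higher genes, 8 had a positive fold change in the injured DRG, where 54.3% of all genes did, and 9 in the right DRG, where 51.3% did. One FOD-CCI rat, replicate 1, also carried spinal cord transcripts on both sides (0.447% and 0.661% of counts), and without it 6 of 10 were positive in the injured and 2 of 10 in the right DRG. Of the 10 leading lower genes, 4 were negative in the injured DRG and 5 of 9 tested in the right DRG.

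Lcat had a fold change of 1.37 in sham, 0.14 (SE 0.31) in injured and 0.17 (SE 0.34) in right DRG. Scn3a had 1.61, −0.52 (SE 0.4) and 0.38 (SE 0.52), and Cept1 −0.63, −0.16 (SE 0.19) and −0.18 (SE 0.26). Hmgn1 had 0.35 in sham, 0.97 (SE 0.22) in injured and 1 (SE 0.27) in right DRG. Alox5ap had −0.87 in sham and 1.72 (SE 0.62) in injured DRG. The difference between the sham and the injured fold changes was tested for every gene as an interaction, and edgeR called 0 of 14484 genes, while 725 had an unadjusted p below 0.05 and the smallest adjusted p was 0.894. Without both libraries and FOD-CCI replicate 1 it called 0 of 15177, while 1041 had an unadjusted p below 0.05.

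Calls appeared in 3 of the other fits, each of which handled the libraries with muscle or spinal cord transcripts in its own way. With the muscle and spinal cord marker levels of each library as covariates, 71 of 14484 genes (0.49%) were called, 28 higher and 43 lower. Of these, 66 had the same sign without both libraries and 4 were there at an unadjusted p under 0.05. They included Lcat (adjusted p = 0.0648) and Baalc (adjusted p = 0.0648) on the higher side and Ndufs4 (adjusted p = 0.0381), Mrpl42 (adjusted p = 0.0572) and Uqcrq (adjusted p = 0.0648) on the lower side. Cytosolic ribosomal, mitochondrial ribosomal and oxidative phosphorylation genes made up 11 of the 71. These 3 lists held 76, 70 and 75 of the 14484 genes tested. Their median fold changes without both libraries were 0.01, 0.08 and 0.14. DESeq2 on the 5 sham libraries alone, an alternative chosen after seeing the data, called 9 of 14860 genes (0.0606%), 2 higher and 7 lower. DESeq2 without both libraries and FOD-CCI replicate 1 also called 9 genes, 4 of them in common. With edgeR, 0 genes were called in either of these sets of libraries. Values of the genes called on the 5 sham libraries are given among the other observations.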

How the data were processed

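Per the labels, the authors used fastp for trimming, HISAT2 for alignment and featureCounts 1.5.0-p3 for counts per gene. The genome build and the use of strand in counting are not given in the sources used here. The deposited gene counts (39747 genes, 20 libraries) were tested as deposited. The deposited FPKM values, which the authors derived from the counts and scaled to gene length and library depth, were not used.

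The 14 left libraries were fitted in edgeR 4.0.16 (R 4.3.3) with TMM scaling, a mean for each of 4 groups and the quasi-likelihood test, after dropping genes that did not reach 10 counts in 90% of libraries (13 of 14). Calls required a 1.2-fold difference and a p, adjusted by Benjamini-Hochberg, no higher than 0.1. DESeq2 1.42.0 and limma 3.58.1 (voom with a quality weight for each library) were alternatives. In the limma fit SOD-CT replicate 1 had a weight of 0.12 and FOD-CT replicate 1 of 0.31, against 0.42 to 3.52 for the other sham libraries. CPM values are TMM-scaled. List levels are means of log2 CPM with a prior count of 2. The fitting code was tested on simulated data.

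Genes named are the 10 higher and 10 lower of smallest p that kept their sign when libraries were left out, the 2 members of smallest p in each of 39 lists (4 in lipid lists; some only by level or by list), and abundant muscle and spinal cord markers. The libraries compared, the genes and the lists were chosen with earlier results of these data known. List counts and medians carry no test.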

Additional observations from a re-analysis of the deposited data

Results flagged for a closer look

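Of 126 genes examined on the log2 CPM scale, 11 had 1 SOD-CT library far from the other 3 by Dixon's criterion, which chance meets in about 1 in 20 groups, and in all 11 it was SOD-CT replicate 1, the library with 17.3% muscle marker counts. Groups of 3, such as FOD-CT, were not examined in this way. In 8 genes this library was the low one. Baalc stood at 2.92 CPM against 12.5 to 15.7 in the other SOD-CT libraries, and St3gal4 at 16.4 CPM against 29.8 to 30.5. The desaturase Fads2 stood at 43.7 CPM against 101 to 111, and the cholesterol synthesis enzyme Dhcr7 at 18.4 CPM against 56.1 to 63.4. The glial receptor Gpr37l1 stood at 87.8 CPM against 132 to 139, and the folate enzyme Mthfd2 at 6.45 CPM against 17.6 to 20.6. Pparg, the adipocyte PPAR, and Klra1, a receptor of natural killer cells, had a count of 0 there, against 1.6 to 1.91 CPM and 2.95 to 4.71 CPM.

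In the other 3 genes the same library was the high one. Acacb, an acetyl-CoA carboxylase, stood at 29.6 CPM against 5.87 to 6.91, and Fabp3, a fatty acid-binding protein of muscle and heart, at 310 CPM against 43.1 to 57.4. Unc45b, a myosin chaperone of muscle, stood at 168 CPM against 0.778 to 1.53. The part of the muscle transcripts in these values was not tested.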

How the results depend on the processing

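The count of called genes stayed at 0 in the other fits run, except 71 with muscle and spinal cord covariates, 9 with DESeq2 on the 5 sham libraries and 9 with DESeq2 without these 2 libraries and FOD-CCI replicate 1 (4 genes in common), and was 0 whichever left library was left out. The count at an unadjusted p under 0.05 (491) was 2364 with the covariates, 1008 without a count filter, 774 with filterByExpr, 793 with limma, 254 with only the 7 sham libraries and 163 for FOD-CT replicate 3 against SOD-CT replicates 2 to 4. Leaving out 1 library gave 182 (without FOD-CT replicate 1) to 961 (without SOD-CT replicate 3). Without SOD-CT replicate 2 it was 750, and without FOD-CT replicate 2 it was 742. With a replicate block it was 195, with 0 calls. The replicate numbers only name different rats, and deviations of same-numbered libraries correlated at −0.135, −0.261 and 0.257. Genes without overlap between groups went from 471 to 2382 without both libraries.

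The log2 fold change turned its sign without both libraries, without these and FOD-CCI replicate 1, and with only the 5 sham libraries for Acadm (0.58 in each), Cd36 (0.2 in each), Fabp3 (0.42, 0.42 and 0.41), Lpl (0.04 in each), Ptgr1 (−0.1 in each), Ptges3 (0.11 in each), Gpr37 (−0.01 in each), Cnr1 (−0.08 in each) and Mboat7 (−0.09, −0.08 and −0.09), and for Srebf2 with only the 5 sham libraries (0). With limma it turned for Cpne5 (−0.14), Acadm (0.33), Cd36 (0.52), Fabp3 (0.07), Lpl (0.63), Ptgr1 (−0.16) and Ptges3 (0.18), and with the covariates for Cnr1 (−0.07). Leaving out 1 library gave −1.77 to 0.38 for Acadm, −1.92 to 0.04 for Cd36, −1.83 to 0.03 for Fabp3 and −0.07 to 1.25 for Ptgr1. The cause was not tested. Over genes and settings that leave out no single library, 876 values kept their sign and side of the threshold, 36 turned, and 9 passed the threshold only with the covariates.

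With 3 and 4 rats a group and a biological coefficient of variation of 0.45, the interval of most genes reached beyond a 2-fold change. FOD-CT replicate 3 was the only FOD-CT library with low shares of both muscle (0.124%) and spinal cord (0.0111%) markers. Spinal levels and strand use are not given in the sources used here.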

Other observations

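The 9 genes that DESeq2 called on the 5 sham libraries alone were chosen after their values were seen. On the same 5 libraries edgeR called 0 genes, so these calls depend on the test used. The genes are given with the levels of the 2 libraries that were left out. LOC108349033 had the smallest adjusted p (1.56e-10 by DESeq2, log2 fold change −4.54, SE 0.59). It stood at 10.6, 10.1 and 4.71 CPM in SOD-CT replicates 2 to 4 and at 0.343 and 0.383 CPM in FOD-CT replicates 2 and 3. In the libraries left out it stood at 5.23 CPM (SOD-CT replicate 1) and 14.7 CPM (FOD-CT replicate 1), so the fish oil library left out was the highest of all 7.

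Slc7a11, the cystine transporter that supplies glutathione synthesis, stood at 5.81, 19.5 and 5.35 CPM in SOD-CT replicates 2 to 4 and at 1.19 and 1.89 CPM in FOD-CT replicates 2 and 3 (−2.73, SE 0.66, adjusted p = 0.0662 by DESeq2). Cbs, the enzyme that begins the making of cysteine from homocysteine, stood at 7.33, 3.44 and 10.3 CPM and at 1.06 and 1.2 CPM (−2.64, SE 0.6, adjusted p = 0.0347 by DESeq2). In FOD-CT replicate 1, the library with spinal cord transcripts, Slc7a11 stood at 58.2 CPM and Cbs at 40.4 CPM, above every SOD-CT library. Both genes act in cysteine supply and, in a set chosen by these same values, were low in the other 2 FOD-CT libraries. The list of NRF2 antioxidant and iron genes, which holds Slc7a11, had a median of 0 without both libraries (16 of 32 positive). For selenoproteins and selenocysteine synthesis genes it was −0.05 (14 of 30).

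Of the immune genes, the class I MHC genes RT1-A2 and RT1-T24-4 stood at 8.79 and 19.6 CPM and at 2.62 and 2.12 CPM in FOD-CT replicates 2 and 3, against 37.5 to 62.3 CPM and 6.11 to 8.72 CPM in SOD-CT. In FOD-CT replicate 1 they stood at 40.4 and 19.3 CPM. Reads of class I genes can be shared between copies, so these 2 levels are uncertain. Klra1, a receptor of natural killer cells, stood at 0.561 and 0.536 CPM against 0 to 4.71 CPM in SOD-CT and 4.97 CPM in FOD-CT replicate 1, and Gna15, a G protein subunit of blood cells, at 0.405 and 0.485 CPM against 1.36 to 3.28 and 2.96 CPM.

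The 2 higher genes were LOC298611, at 25.8 and 28.5 CPM against 4.15 to 9.9 CPM in SOD-CT and 6.88 CPM in FOD-CT replicate 1, and Unc45b, a myosin chaperone of muscle. Unc45b stood at 29.7 and 1.81 CPM in FOD-CT replicates 2 and 3 and at 168 CPM in SOD-CT replicate 1, the libraries with the most muscle transcripts being the highest. Without FOD-CCI replicate 1 as well, DESeq2 again called 9 genes, of which 4 were the same (LOC108349033, Klra1, Gna15 and Unc45b).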
